A study of Mus musculus with 53 samples.

Results

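Ribosome biogenesis is the assembly line on which RNA polymerase I transcribes the ribosomal RNA precursor and a large set of factors cuts, modifies and folds it into ribosomal subunits in the nucleolus. Small nucleolar ribonucleoproteins modify the precursor, the small-subunit processome builds the small subunit around it, and a separate series of factors matures the large subunit. The MYC transcription factor is known to raise the transcription of many of these genes, and MYC is a common driver of T-cell leukaemia. The genes examined were 43 named ribosome biogenesis factors, listed by symbol with earlier results of these data known. An own probe set, 1 that the annotation gives to a single gene symbol, was present for 40 of the 43, and where a gene had several the probe set of highest mean was used. All 40 passed the filter for low signal that 9157 of the 12394 genes on the array passed. Dkc1, the pseudouridine synthase of the box H/ACA particles, and Nob1, the nuclease that trims the small-subunit RNA, had no such probe set. The probe set of Mrto4, a large-subunit factor, is shared with pseudogenes, and Mrto4 was left out.

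The data are 53 Affymetrix arrays of T-cell lymphoblasts from C57BL/6 mice, 1 tumour sample per array, with no treatment. They fall into 15 genotypes, called backgrounds here. Transgenic tumours carried beta-catenin (3 arrays), LMO1 (3), olig1-LMO1 (3, titled olig2 in the same labels), Nup98HoxD13 (3), Pokemon (2), Tal1 (2), Tal1-LMO2 (3), ThPOK (3) or TLX1 (6). A further 6 arrays came from TLX1 transgenic mice crossed to RUNX heterozygotes, called crossed tumours here, and are labelled negative for TLX1. The knock-out or mutant backgrounds were E2A (2), rag E2A (2), p53 (3), Ikaros Plastic (3) and Cdkn2a knock-out with retroviral insertional mutagenesis (9). The sources used here do not give the transgenes' promoters, and the arrays analysed here hold no normal thymus. Every comparison is therefore between tumours. Since no label states that arrays of a background came from separate animals, the p-values rest on the spread among these arrays, part of which may be technical. In bulk RNA of this kind, fewer cells of a type and less RNA per cell cannot be told apart.

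Some facts of the whole series touch the values below. The arrays were clustered on 27 bacterial control probe sets, whose RNA is added during the assay, and divided into 4 sets. The number 4 was a setting of the analysis and was not found from the controls. The largest set held 38 arrays of 13 backgrounds. Another held 8 arrays, all 6 TLX1 tumours and replicates 1 and 2 of the p53 knock-out. The 6 crossed tumours formed a set of their own, and replicate 2 of Tal1-LMO2 stood alone. The crossed tumours also had a probe set for ribosomal 18S RNA at log2 12.35 to 13.13, against at most 9.77 on every other array. Lmo1 lay at log2 12.32 to 13.34 on the arrays labelled with an LMO1 transgene and at most at 9.72 elsewhere. Zbtb7a, which encodes Pokemon, lay at 12.02 to 12.13 in its transgenic tumours and at most at 10.23 elsewhere. Runx1 lay at 8.95 to 9.38 in the crossed tumours and at 9.59 to 12.16 elsewhere. Other labelled genes did not separate their groups. Cdkn2a lay at 8.04 to 8.43 in its knock-out and at 7.67 to 9.95 elsewhere, and Lmo2 at 7.77 to 7.93 in Tal1-LMO2 tumours and at 7.75 to 11.71 elsewhere. Tcf3, which encodes E2A, lay at 9.53 to 10.05 in both E2A backgrounds and at 9.69 to 11.51 elsewhere. Zbtb7b, Ctnnb1 and Ikzf1 overlapped with the other arrays too, and Tlx1 and Tal1 were below the filter, Tlx1 at 7.59 to 7.99 in TLX1 tumours. Where the probes lie against a deletion or transgene was not examined, so these genes do not check their labels. Of 12 T-lineage markers 10 were measured, with means from log2 9.35 for Cd5 to 13.05 for Thy1. Replicate 2 of the p53 knock-out had the lowest T-lineage mean, -2.53 log2 units relative to the average array.

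As a single reading of the 40 genes, each gene's log2 intensity was centred on its mean over the 53 arrays and the 40 centred values were averaged on each array. On the deposited scale this mean, called the score, was lowest in the crossed tumours at -0.23 ± 0.22 (SD, n = 6). It was highest in the Pokemon tumours, at 0.13 ± 0.04 (SD, n = 2), and in the ThPOK tumours, at 0.13 ± 0.09 (SD, n = 3). The 3 p53 knock-out arrays were at -0.03, -0.46 and 0.08, and the 3 Ikaros Plastic arrays at 0.18, -0.55 and 0.00. In both backgrounds 1 array, replicate 2, lay far below the others. That array of Ikaros Plastic was also at -0.53 in its T-lineage mean relative to the average array and 1.40 above average in a mean of stromal genes. That array of the p53 knock-out was 1.73 above average in the stromal mean. Replicate 1 of the crossed tumours had the lowest score of all, -0.58, and lay at -1.23 in the T-lineage mean, 1.35 in a mean of myeloid genes and 0.62 in the stromal mean. The 6 crossed arrays ran from -1.23 to 0.03 in the T-lineage mean and from 0.13 to 0.62 in the stromal mean. The part of these cells in the scores was not tested.

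Between these ends the backgrounds were ordered TLX1 (-0.03 ± 0.16), beta-catenin (-0.03 ± 0.08), LMO1 (-0.02 ± 0.10), rag E2A (0.02 ± 0.20), Tal1 (0.05 ± 0.07), olig1-LMO1 (0.05 ± 0.23), E2A (0.06 ± 0.19), Tal1-LMO2 (0.08 ± 0.11), Cdkn2a (0.09 ± 0.21) and Nup98HoxD13 (0.12 ± 0.12), with the error as SD over 2 to 9 arrays. No neighbouring pair in the order differed by more than its spread. The gaps ran from 0.0002 to 0.10, below the SDs on either side. The order depends on the scale. Read against the median of all genes on each array, the lowest backgrounds were Ikaros Plastic (-0.16), the p53 knock-out (-0.11) and the crossed tumours (-0.10), and the highest were Pokemon (0.17), Nup98HoxD13 (0.15), olig1-LMO1 (0.15) and Tal1-LMO2 (0.10). ThPOK tumours then lay at 0.07. The 15 backgrounds took up 31.5% of the variance of the score, so more of its variance lay between tumours of 1 background than between backgrounds.

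**Figure D1:**
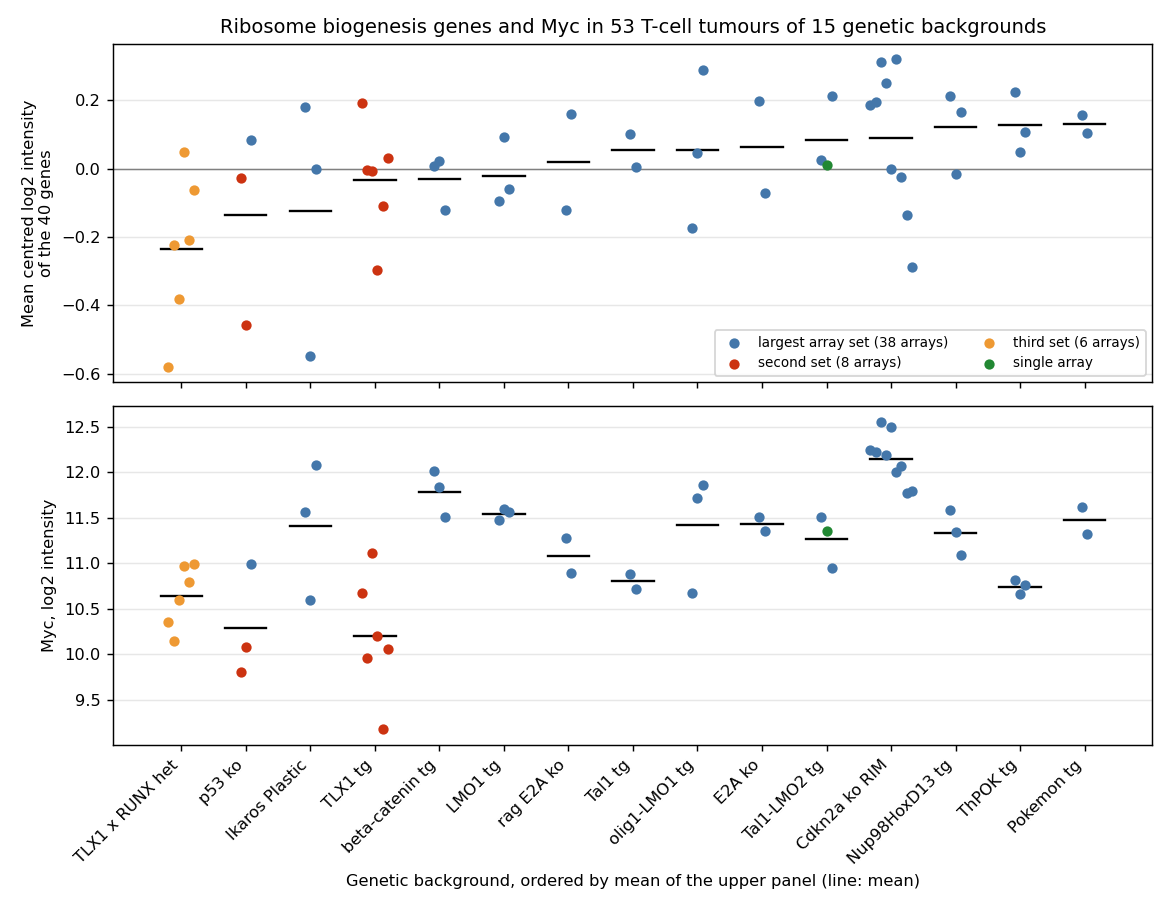
Upper panel, the ribosome biogenesis score (mean of 40 centred log2 intensities, vertical axis) on each of the 53 arrays by background, coloured by array set; lower panel, the log2 intensity of Myc on the same arrays. The score overlaps between almost all backgrounds and on this scale is lowest in the crossed tumours (-0.23, and -0.10 against the median of all genes, where Ikaros Plastic is lowest), while Myc is highest in the Cdkn2a knock-out tumours (11.77 to 12.56) and lowest in the TLX1 tumours (9.18 to 11.12).

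Myc itself differed more between backgrounds. It was highest in the Cdkn2a knock-out tumours, at log2 12.15 ± 0.27 (SD, n = 9), where the 9 arrays ran from 11.77 to 12.56. It was lowest in the TLX1 tumours, at 10.20 ± 0.66 (SD, n = 6), and the TLX1 arrays ran from 9.18 to 11.12, all below the Cdkn2a arrays. ThPOK tumours joined a low Myc level, 10.74 ± 0.08 (SD, n = 3) and the 4th lowest of 15, to a score of 0.13, which was 0.07 against the median of all genes. The order of the backgrounds by Myc and by score was thus not the same: over the 15 background means Pearson's r was 0.40 and Spearman's rho 0.38, and r was 0.24 without the 2 backgrounds farthest from the median Myc level. Over the 13 backgrounds other than TLX1 and crossed, r was 0.24, rho 0.10, and r -0.39 without the 2 farthest.

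Within a background the genes moved together. The median pairwise correlation of the 40 genes over the 53 arrays was 0.41, against 0.002 for all genes tested, and it was 0.53 against 0.002 once the background means were taken away. These are descriptions over arrays that share array sets and signal scale. The gene closest to the mean of the other 39 was Nolc1, a chaperone of small nucleolar ribonucleoproteins, with r of 0.91. Nop56, a core protein of the box C/D particles, followed at 0.86, and Fbl, the methyltransferase of those particles, at 0.83. Farthest from the rest were Nop14 (0.13), a processome factor, Ltv1 (0.22), an export factor of the small subunit, and Noc2l (0.23), a large-subunit factor. Noc4l, a processome factor, had r of 0.29 over all arrays and 0.72 within backgrounds. Nop14 did not gain in this way and had r of -0.04 within backgrounds.

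Other gene lists give this its scale. A list of 48 further rRNA processing genes had a median pairwise correlation of 0.45 within backgrounds, ribosomal proteins 0.29 and DNA replication genes 0.73. Within backgrounds the score followed the mean of the further processing genes at r of 0.98, the mean of MYC target genes outside ribosome biogenesis at 0.88, DNA replication genes at 0.72 and ribosomal proteins at 0.66. The score also moved against the median signal of the array, at -0.58. The part of that median in the score was not tested.

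The share of each gene's variance that lay between the 15 backgrounds had a median of 48.5% over the 40 genes and of 64.2% over all genes tested. By limma's moderated F-test with Benjamini-Hochberg adjustment over all genes, 25 of the 40 genes (62.5%) differed between backgrounds at an adjusted p under 0.05, where 89.2% of all genes did. The members' share was thus below the background of the whole array. By role, 0 of the 3 box C/D proteins passed, 1 of 3 box H/ACA proteins, 2 of 5 nucleolar scaffold, chaperone and helicase genes, 3 of 3 polymerase subunits, 8 of 8 processome genes, 2 of 4 late small-subunit factors and 9 of 14 large-subunit factors. Highest in the share were Rrp1b, a large-subunit factor, at 87.6%, Noc4l at 86.2%, Nop14 at 85.4% and Polr1b, a catalytic subunit of RNA polymerase I, at 83.8%. Grwd1, a chaperone of a large-subunit protein, followed at 75.4%. Lowest was Nop56 at 16.8%. The median share of the box C/D proteins was 19.7% and that of the processome genes 63.7%. Part of each share comes from the split into 15 groups, as for the score. The median SDs within backgrounds and over all arrays were 0.35 and 0.33 for box C/D, and 0.22 and 0.30 for the processome. With the array set as a block, or in the largest array set alone, 13 of the 40 passed, with 73.5% and 78.1% of all genes. The F-test with the block left the crossed tumours out, and the largest set holds neither crossed nor TLX1 tumours. Both thus compared fewer backgrounds than 15, and the part of this in the lower counts was not tested.

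The core box C/D proteins Fbl and Nop56 had the lowest shares of variance between backgrounds among the 40. Fbl had background means from log2 12.27 in the crossed tumours to 12.69 in Nup98HoxD13 tumours, with an SD within backgrounds of 0.30. Nop56 ran from 11.71 in the p53 knock-out to 12.21 in olig1-LMO1 tumours, with an SD within of 0.35. Neither passed the F-test, and the ranges of their means were 0.42 and 0.50.

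Nop58 had a wider range, from 10.82 in the p53 knock-out to 11.85 in Pokemon tumours, and did not pass. Nucleolin, Ncl, which packs and processes the precursor RNA, ran from 12.64 in the p53 knock-out to 13.21 in Pokemon tumours, with an SD within of 0.25. Npm1 ran from 12.75 in TLX1 tumours to 13.47 in Pokemon tumours. Pokemon tumours, with the highest score, thus had the highest mean of Nop58, Ncl and Npm1, over 2 arrays.

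The complex of Pes1, Bop1 and Wdr12, which acts in large-subunit maturation, did not share an order. Pes1 was highest in the crossed tumours, at 10.73, and lowest in E2A knock-out tumours, at 10.13. Bop1 was highest in Cdkn2a knock-out tumours, at 11.09, and lowest in ThPOK tumours, at 10.45. Wdr12 was highest in olig1-LMO1 tumours, at 11.28, and lowest in the p53 knock-out, at 10.13.

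**Figure D2:**
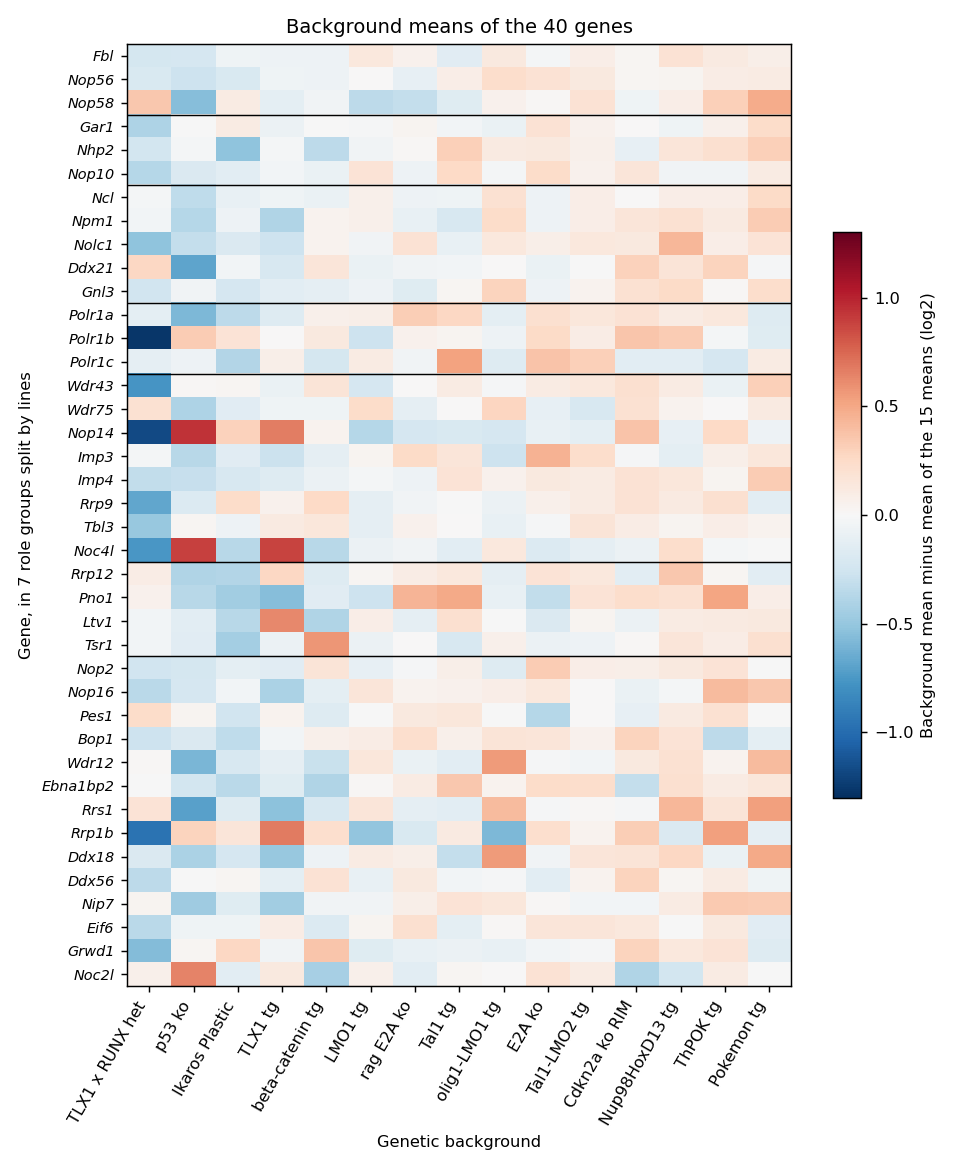
Mean log2 intensity of each of the 40 genes (rows, ordered by role) in each of the 15 backgrounds (columns), centred on the mean of the gene's 15 background means. Colour gives the centred value in log2 units. Noc4l and Nop14 stand out as high in the TLX1 and p53 knock-out tumours, and Nop14, Rrp1b and Polr1b as low in the crossed tumours, while the box C/D genes Fbl and Nop56 have means within a range of 0.42 and 0.50.

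The question of how far the genes follow Myc was put to tumours of the same background. Over the deviations from background means, the score and Myc had r of 0.52 and rho of 0.49 over 53 arrays, and r of 0.57 without the 2 arrays farthest from the median. In the largest array set r was 0.60 and rho 0.45 over 37 arrays, with r of 0.42 without the 2 farthest. Pooled without regard to background, r was 0.46 over all 53 arrays and 0.28 over the 38 arrays of the largest set. In 13 of the 15 backgrounds the array with the highest Myc had a higher score than the array with the lowest. The exceptions were rag E2A and Tal1-LMO2. In Ikaros Plastic the array with Myc at 12.09 had a score of 0.00 and that at 10.60 a score of -0.55. In olig1-LMO1 the arrays with Myc at 11.86 and 10.67 had scores of 0.29 and -0.17.

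Inside single backgrounds the relation could be read only where 6 or more arrays existed. In the 9 Cdkn2a knock-out tumours r was 0.60 and rho 0.47, and it rested on 2 arrays: without the 2 farthest, r was -0.03. In the 6 TLX1 tumours r was 0.36 and rho 0.20, and r was 0.45 without the 2 farthest. In the 6 crossed tumours r was 0.67 and rho 0.77, and r was 0.95 without them.

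**Figure D3:**
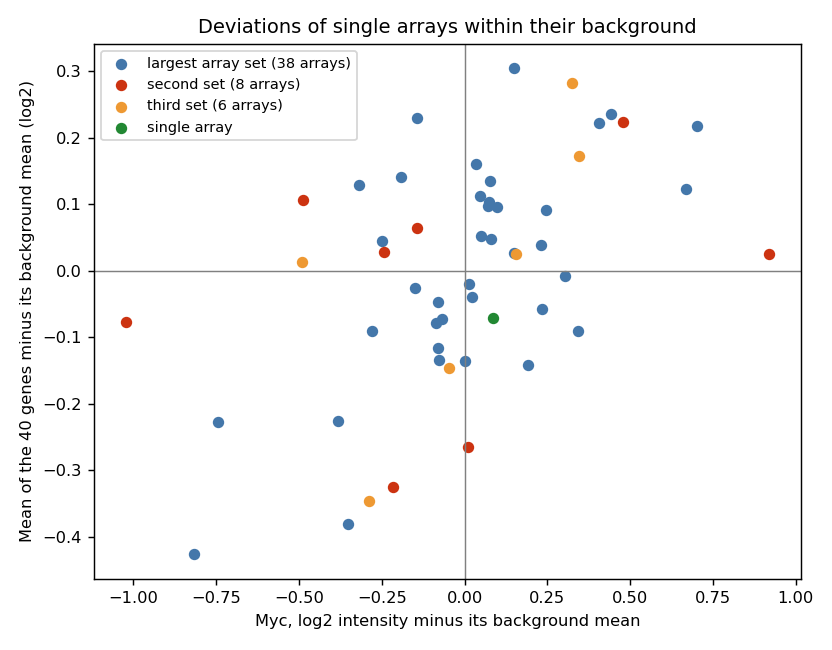
Deviation of the ribosome biogenesis score from its background mean (vertical axis, log2 units) against the deviation of Myc (horizontal axis, log2 units) on each array. The cloud rises from lower left to upper right, with r of 0.52 over all 53 arrays, and its lowest point is an Ikaros Plastic array.

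Gene by gene, a slope on Myc was fitted over the 53 arrays with background as a covariate. All 40 slopes were positive, and their median was 0.26 log2 units per log2 unit of Myc, against -0.02 over all genes. By limma with adjustment over all genes, 11 of the 40 passed, all in the positive direction, where 2.72% of all genes passed (249 of 9156). Of all genes 1.99% passed with a positive and 0.732% with a negative slope. The 40 were listed with earlier results of these data known, so setting them against all genes is a description. The steepest that passed was Gnl3, nucleostemin, a GTP-binding nucleolar protein of proliferating cells. Its log2 level was 11.63, 11.54 and 12.38 on the p53 knock-out arrays whose Myc was at 9.81, 10.08 and 11.00. On the olig1-LMO1 arrays Gnl3 was at 11.77, 12.17 and 12.63 with Myc at 10.67, 11.72 and 11.86. In both backgrounds the array highest in Myc was highest in Gnl3. On the Ikaros Plastic arrays Gnl3 was at 12.05, 11.18 and 11.82 with Myc at 11.56, 10.60 and 12.09, so the low array was shared and the high one was not. Its slope was 0.47 ± 0.09 (SE; adjusted p = 0.00710 by limma).

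The 11 genes came from 6 of the 7 roles. Among the nucleolar chaperones Nolc1 had a slope of 0.43 ± 0.12 (limma adjusted p = 0.0446), and among the box C/D proteins Nop56 had 0.42 ± 0.12 (adjusted p = 0.0409). Polr1b of RNA polymerase I had 0.37 ± 0.08 (adjusted p = 0.00759). Of the processome, Noc4l had 0.34 ± 0.07 (adjusted p = 0.00710) and Imp3 0.26 ± 0.08 (adjusted p = 0.0493). Tsr1, a GTPase-like factor of late small-subunit maturation, had 0.44 ± 0.10 (adjusted p = 0.0187).

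The 4 large-subunit factors that passed were Bop1, a member of the complex with Pes1 and Wdr12, at 0.40 ± 0.10 (limma adjusted p = 0.0250), Nop2, an RNA methyltransferase, at 0.33 ± 0.09 (adjusted p = 0.0314), the helicase Ddx18 at 0.31 ± 0.08 (adjusted p = 0.0328) and Nip7 at 0.29 ± 0.08 (adjusted p = 0.0446). No box H/ACA protein passed, and the median slope of that role was 0.22. The median slopes of the other roles were 0.25 for box C/D, 0.31 for scaffold and chaperone genes, 0.27 for polymerase subunits, 0.17 for the processome, 0.20 for late small-subunit factors and 0.30 for large-subunit factors.

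Several textbook members of the MYC program fell short of the threshold. Rrs1, a large-subunit assembly factor, had a slope of 0.42 ± 0.13 (limma adjusted p = 0.0559). Nucleophosmin, Npm1, had 0.31 ± 0.10 (adjusted p = 0.0708), and Nop58, a core box C/D protein, 0.21 ± 0.15 (adjusted p = 0.390). Nucleolin, Ncl, had 0.12 ± 0.09 (adjusted p = 0.458), and Fbl had 0.25 ± 0.11 (adjusted p = 0.174). The shallowest slopes were those of Ltv1 (0.03), Imp4 (0.05) and Nop14 (0.06), small-subunit factors. For 22 members the array held other probe sets of the same gene, 30 in all, and 27 of these 30 also had a positive slope. The correlation of the 30 with the probe set used had a median of 0.544. Those with a negative slope belonged to Ddx18 (-0.12), Nip7 (-0.11) and Imp4 (-0.06). Ddx18 and Nip7 were among the 11 that passed, so their slopes were not shared by all their probe sets. A further Ddx18 probe set had 0.30.

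**Figure D4:**
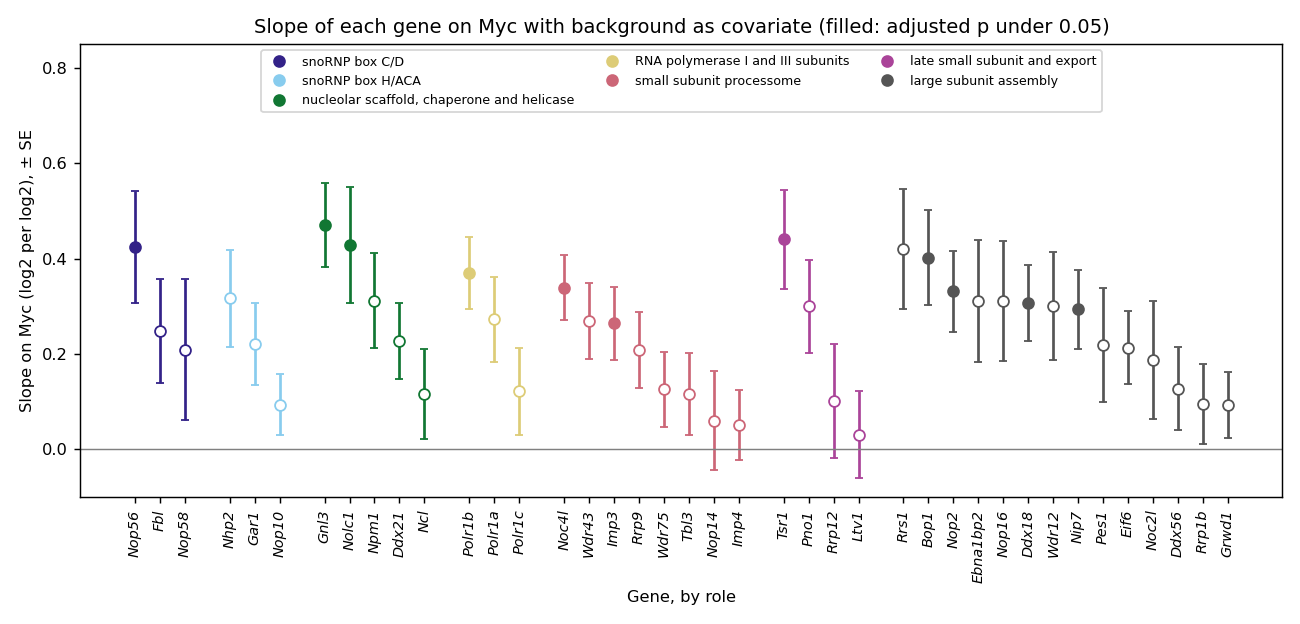
Slope of each of the 40 genes on Myc within backgrounds (vertical axis, log2 units per log2 unit of Myc, bars are SE), with genes grouped by role along the horizontal axis. Filled points have a limma adjusted p under 0.05. All 40 points lie above 0, from 0.03 for Ltv1 to 0.47 for Gnl3, and 11 are filled.

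The number that passed rested on few arrays. Without replicate 2 of Ikaros Plastic, the array with low Myc and high stromal genes, only Gnl3 passed (slope 0.44, limma adjusted p = 0.0437). The count was 3 without p53 knock-out replicate 3, 4 without Ikaros Plastic replicate 3, 5 without TLX1 replicate 1 and 6 without Cdkn2a replicate 8. It was 7 without Cdkn2a replicate 3 or 9, olig1-LMO1 replicate 3, or crossed replicate 1, 4 or 6, and 17 without p53 knock-out replicate 1. With the array set as a block 3 passed, Gnl3, Noc4l and Polr1b, with 0.328% of all genes. Next to the background covariate, this block only takes p53 knock-out replicate 3 and Tal1-LMO2 replicate 2 out of the slope. It is thus close to leaving out p53 knock-out replicate 3 and is no separate check on array sets. In the largest array set alone 11 passed, 8 of them shared with the 11 above, where 3.71% of all genes did. After centring each array on its median 25 passed, where 12.7% of all genes did, and without the background covariate 28 passed, where 39.5% did. With the array's median signal and its actin 3'/5' ratio, a measure of RNA integrity, as covariates, limma called 0 of the 40 and 5 of all genes (0.0546%), 39 slopes stayed positive and 24 members had an unadjusted p under 0.05, as did 10.9% of all genes. Within backgrounds Myc and that ratio had r of -0.50, and of -0.03 in the largest array set. With the mean of the DNA replication genes as a covariate limma called 0 members and 0% of all genes, 35 slopes were positive with a median of 0.13, and 14 members had an unadjusted p under 0.05, as did 7.95% of all genes.

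Related lists stood as follows in the same fit. Of 48 further rRNA processing genes 9 passed, all lists here being counted at limma's adjusted p, with a median slope of 0.20. Nol11, a processome factor, had 0.57, and Brix1, a large-subunit factor, 0.52. Of 9 RNA polymerase I factors 1 passed, Polr1e (0.44). Of 41 ribosomal proteins, the structural parts of the ribosome itself, 1 passed, Rpl12 (0.42), and their median slope was 0.06. Of 26 DNA replication genes 2 passed, Rfc3 (0.60) and Rfc5 (0.37), with a median slope of 0.26. Of 19 MYC targets outside ribosome biogenesis 3 passed, among them Ppat (0.59), the entry enzyme of purine synthesis.

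The motif CACGTG, the E-box that MYC and its partner MAX are known to bind, was searched in the promoter windows of the RefSeq table on build GRCm38.p6, from 250 bases before to 50 bases after each gene's start. The motif is its own reverse complement, so both strands read alike. Of the 40 genes 33 had a window, and 8 of these 33 (24.2%) held the motif, against 11.9% of the tested genes with a window (879 of 7385) and 7.15% of all windows. Among the further rRNA processing genes 24.4% held it, among ribosomal proteins 11.1% and among DNA replication genes 18.2%. The 8 genes with the motif had a median slope on Myc of 0.24 and the 25 without it 0.26. They are shown because they are the members for which this letter string lies by the start, each as 30 bases of the gene's own strand with the motif in capitals. Positions count the start site as 1. The windows lie at chr1:34439696-34439725 on the plus strand for Imp4 (motif from base -121), chr6:125131811-125131840 plus for Nop2 (-60), chr7:45830740-45830769 minus for Grwd1 (35), chr10:13193092-13193121 minus for Ltv1 (29), chr11:3963965-3963994 plus for Pes1 (3), chr11:17211540-17211569 minus for Pno1 (38), chr11:74898092-74898121 plus for Tsr1 (25) and chr17:71616220-71616249 plus for Wdr43 (18).
Imp4: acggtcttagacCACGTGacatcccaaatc
Nop2: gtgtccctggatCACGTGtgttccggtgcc
Grwd1: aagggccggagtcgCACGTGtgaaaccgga
Ltv1: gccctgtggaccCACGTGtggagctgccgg
Pes1: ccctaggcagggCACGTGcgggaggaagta
Pno1: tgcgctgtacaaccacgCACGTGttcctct
Tsr1: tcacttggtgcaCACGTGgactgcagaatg
Wdr43: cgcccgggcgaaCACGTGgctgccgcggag
Nop2 and Tsr1, both past the threshold on Myc, hold the motif, and so do Ltv1 and Imp4, with the shallowest slopes. The motif is before the start in Imp4 and Nop2 and after it in the other 6. A match describes the letters in the window and not a bound site.

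The TLX1 tumours, with the lowest Myc of the series, were compared with the 13 backgrounds other than the crossed tumours. Myc was lower by 1.09 log2 units there (difference -1.09 ± 0.18 SE, limma adjusted p = 3.29e-06). Of the 40 genes 12 passed, 4 higher and 8 lower in TLX1 tumours, where 47.1% of all genes passed (26.8% higher and 20.3% lower). The members' share was below that of all genes. The 4 higher genes serve small-subunit and large-subunit assembly. Noc4l was at log2 11.69, 11.39, 11.36, 11.39, 11.07 and 11.44 on the 6 TLX1 arrays and at 11.45, 11.18 and 11.60 in the p53 knock-out. It was 0.88 ± 0.10 (SE) higher than in the 13 backgrounds (1.85-fold, adjusted p = 7.79e-10). Nop14 was at 11.47, 11.22, 11.41, 12.31, 11.06 and 12.29 on the TLX1 arrays and at 12.02, 12.13 and 11.56 in the p53 knock-out. The p53 arrays lay inside the range of the TLX1 arrays for both genes.

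Nop14 was 0.62 ± 0.12 (SE) higher in TLX1 tumours than in the 13 backgrounds (limma adjusted p = 2.77e-05). Ltv1 was at 11.42, 12.39, 11.92, 11.79, 11.89 and 11.18 in TLX1 tumours and 0.67 ± 0.10 higher (adjusted p = 1.07e-06). Rrp1b was at 10.99, 11.05, 11.08, 10.88, 11.05 and 10.88, with ThPOK tumours near it at 10.88, 10.78 and 10.87, and was 0.65 ± 0.10 higher (adjusted p = 4.44e-07). Other probe sets did not all follow. The other Noc4l probe sets differed by -0.02 and 0.18 in this comparison, and those of Rrp1b by 0.49 and -0.46. With the mean of each gene's probe sets, Noc4l was 0.35 higher (limma adjusted p = 0.00645) and Rrp1b 0.23 higher (adjusted p = 0.0457).

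Of the 8 lower genes 4 were large-subunit factors. Pno1, a small-subunit factor, differed by -0.59 ± 0.12 (limma adjusted p = 1.22e-04), and the helicase Ddx18 by -0.55 ± 0.11 (adjusted p = 4.04e-05). Npm1, the abundant nucleolar chaperone that is also a leukaemia gene, differed by -0.43 ± 0.13 (adjusted p = 0.00487). Rrs1 (-0.56), Nip7 (-0.48), Nop16 (-0.47), Imp3 (-0.30) and Imp4 (-0.21) made up the rest. The other probe sets of Ddx18 differed by -0.09 and 0.46, and that of Nip7 by 1.08, so these directions belong to the probe sets used. Against all 14 other backgrounds 11 passed, 4 higher and 7 lower, where 47.4% of all genes did (27.8% higher and 19.6% lower). With the array set as a block, which leaves the comparison to lean on the p53 arrays of the TLX1 set, only Noc4l passed, higher by 1.15 ± 0.28 (adjusted p = 0.0151), with 3.98% of all genes. The actin 3'/5' ratio was log2 0.79 to 2.17 in TLX1 tumours and 0.06 to 0.43 in Cdkn2a knock-out tumours, and 6 of 13 stromal and 3 of 7 B-cell markers passed in the same comparison, all higher in TLX1 tumours. The stromal mean ran from -0.09 to 0.78 on the TLX1 arrays. The part of the ratio and of these cells in the differences was not tested.

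The crossed tumours were compared with the TLX1 tumours, and array set and genotype cannot be told apart here, since the 2 groups lay in different sets. Of the 40 genes 16 passed, 4 higher and 12 lower in the crossed tumours, where 56.1% of all genes passed (18.8% higher and 37.3% lower). The processome carried 5 of the 12. Nop14 was at log2 9.58, 9.72, 9.73, 10.03, 9.84 and 9.83 in the crossed tumours, below every TLX1 array, and differed by -1.84 ± 0.15 (SE, limma adjusted p = 9.71e-14). Noc4l was at 9.54, 9.78, 9.65, 9.99, 9.66 and 9.95, again below every TLX1 array, and differed by -1.63 ± 0.13 (adjusted p = 1.45e-14). Rrp1b was at 9.32, 9.31, 9.36, 9.45, 9.30 and 9.38 and differed by -1.64 ± 0.13 (adjusted p = 8.38e-15). The 6 crossed values of Rrp1b lay within a narrow band with no overlap with TLX1.

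Polr1b was at 8.72, 8.63, 8.49, 9.17, 8.60 and 9.56 in the crossed tumours and at 10.30, 9.86, 10.20, 10.23, 9.73 and 10.49 in TLX1 tumours, again with no overlap, and differed by -1.27 ± 0.14 (limma adjusted p = 2.39e-10). Ltv1 was at 11.04, 11.14, 11.22, 11.13, 11.09 and 11.02 in the crossed tumours and differed by -0.66, its groups overlapping through TLX1 replicate 6 at 11.18. Rrp9, a box C/D protein of the processome, differed by -0.72, Wdr43 by -0.68 and Tbl3 by -0.60. The other Noc4l probe sets differed by -0.42 and by less than 0.01, so the size of its fall belongs to the probe set used. Those of Rrp1b differed by -0.77 and 0.21. With the mean of each gene's probe sets, Noc4l differed by -0.68 and Rrp1b by -0.73, and both passed.

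The 4 higher genes included Rrs1, at 10.40, 10.59, 10.49, 11.06, 10.82 and 10.98 in the crossed tumours and at 10.75, 9.81, 10.12, 9.42, 9.75 and 10.27 in TLX1 tumours. Its groups overlapped through TLX1 replicate 1, and it differed by 0.70 ± 0.21 (limma adjusted p = 0.00425). Pno1 was at 10.59, 11.33, 11.01, 11.35, 11.17 and 11.21 in the crossed tumours and at 10.99, 10.73, 10.41, 10.35, 10.25 and 10.27 in TLX1 tumours, overlapping through crossed replicate 1, and differed by 0.61 ± 0.16 (adjusted p = 0.00126). Nip7 differed by 0.49 ± 0.14 (adjusted p = 0.00317) and the helicase Ddx21 by 0.48 ± 0.13 (adjusted p = 0.00150). The other probe set of Nip7 differed by -1.23 and that of Ddx21 by -0.12, opposite in sign to those used. Myc differed by 0.44 ± 0.24 (adjusted p = 0.107). The median difference of all genes was -0.12, and 0.25 after each array was centred on its own median. With that centring 19 members passed, 14 higher and 5 lower, where 66.9% of all genes did (43.3% higher and 23.6% lower). The 5 were Nop14 (-1.46), Rrp1b (-1.26), Noc4l (-1.25), Polr1b (-0.90) and Rrp9 (-0.35). These 5 were thus lower in the crossed tumours under both scalings. Of 10 T-lineage markers 4 passed, all lower in the crossed tumours, and of 18 myeloid markers 9 passed, 6 higher and 3 lower. Of all genes 56.1% passed. A mean of erythroid genes lay at -0.86 ± 0.09 (SD, n = 6) in the crossed tumours and at 0.35 ± 0.23 (SD, n = 6) in TLX1 tumours. The T-lineage means were -0.42 ± 0.43 and 0.10 ± 0.11 (SD). The part of these cells and of the high 18S RNA signal of the crossed arrays in the differences was not tested.

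**Figure D5:**
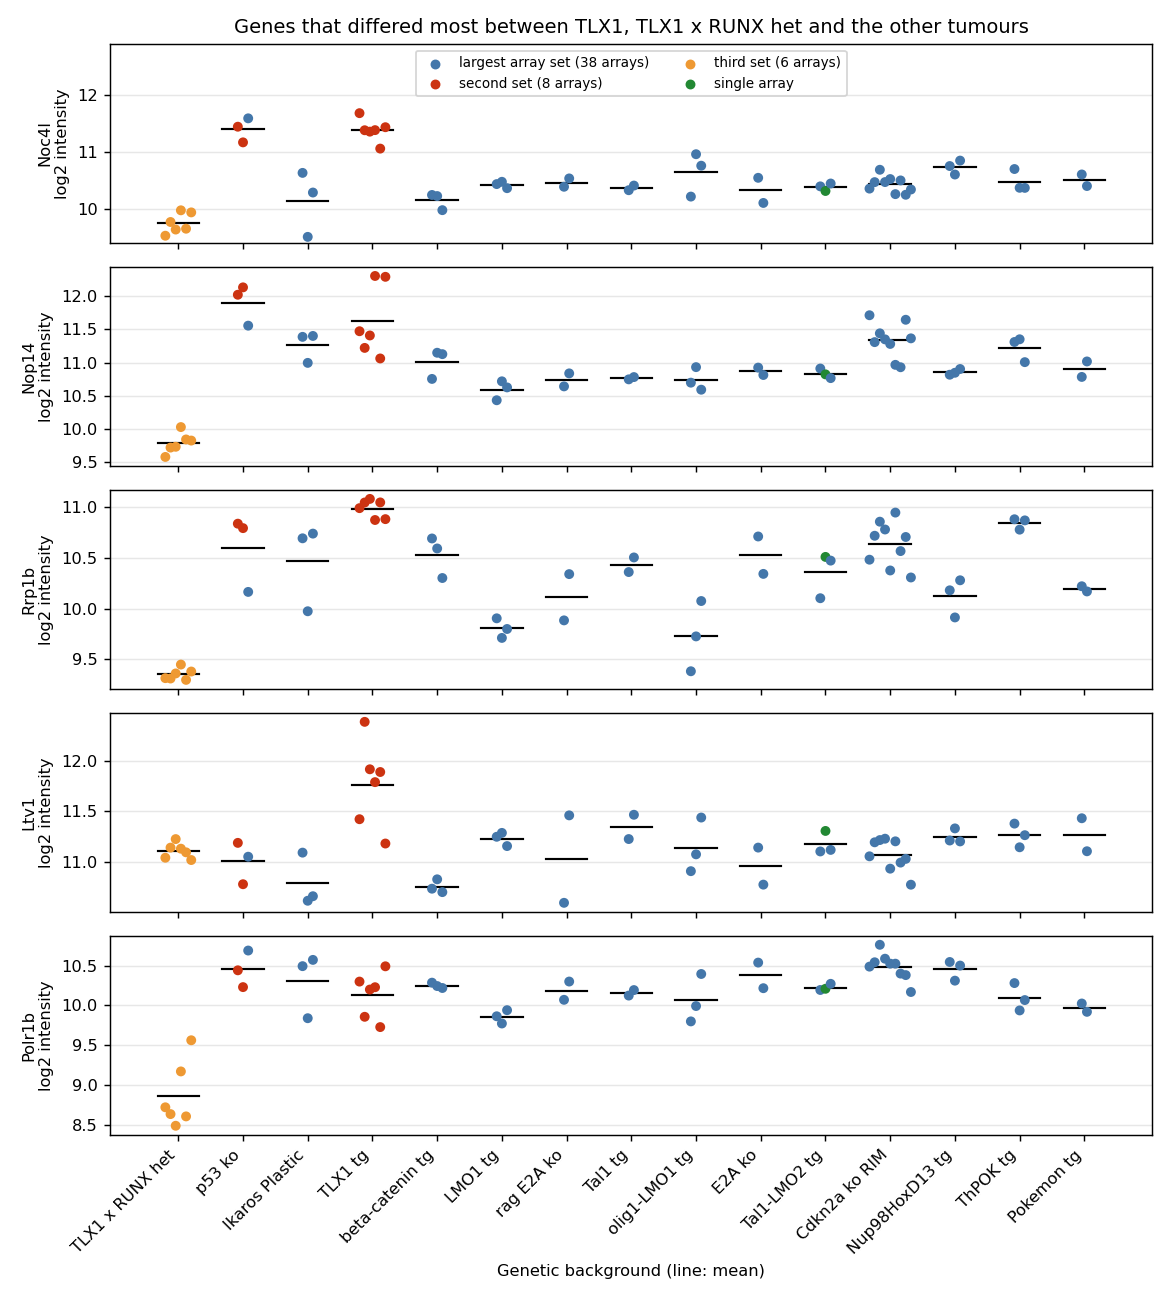
Log2 intensity (vertical axis) of Noc4l, Nop14, Rrp1b, Ltv1 and Polr1b on each array by background. Noc4l and Nop14 are high in the TLX1 and p53 knock-out tumours (Noc4l from 11.07 and 11.18), and in the crossed tumours Noc4l, Nop14, Rrp1b and Polr1b lie below every TLX1 array.

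Against all other 14 backgrounds, 18 members passed in the crossed tumours, 2 higher and 16 lower, where 63.6% of all genes passed (22.3% higher and 41.3% lower). Polr1b (-1.35), Nop14 (-1.26), Rrp1b (-1.03) and Wdr43 (-0.82), an early processome protein, fell most, and Ddx21 (0.29) and Wdr75 (0.21) rose. The other probe set of Ddx21 differed by -0.41 and that of Wdr75 by -0.41, so neither rise was shared. After centring each array on its median 19 members passed, 12 higher and 7 lower, where 71.4% of all genes did (44.6% higher and 26.8% lower). The 2 comparisons share the crossed arrays.

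The p53 knock-out tumours were compared with the other 14 backgrounds. Of the 40 genes 15 passed, 4 higher and 11 lower, where 44.1% of all genes passed (22.9% higher and 21.3% lower). Of 10 T-lineage markers 6 passed, all lower, and of 13 stromal markers 8 passed, all higher. Replicate 2 stood apart in both: on replicates 1, 2 and 3 the T-lineage mean was 0.35, -2.53 and -0.31. The stromal mean was 0.16, 1.73 and 0.03. Higher were Nop14 by 1.01 ± 0.16 (SE), Noc4l by 0.96 ± 0.13, Noc2l, a large-subunit factor, by 0.69 ± 0.19 and Polr1b by 0.35. Among the lower were Rrs1 (-0.76), Ddx21 (-0.73 ± 0.13), Wdr12 (-0.64) and Polr1a (-0.62), the largest subunit of RNA polymerase I. The subunits Polr1a and Polr1b of the same polymerase thus moved in opposite directions. The 3 p53 arrays differ among themselves, and without replicate 2, with its low T-lineage mean, 5 genes passed: Noc4l (1.07), Nop14 (0.89) and Polr1b (0.46) higher, and Polr1a (-0.55) and Ddx21 (-0.46) lower. The largest array set holds 1 p53 array, which was assumed to vary like the arrays of the other backgrounds. There Noc4l (1.16) and Nop14 (0.63) passed, where 14.3% of all genes did. The other Noc4l probe sets differed by -0.02 and -0.13, and with the mean of its probe sets Noc4l did not pass (0.27, limma adjusted p = 0.129).

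The Cdkn2a knock-out tumours, with the highest Myc, were compared with the other 14 backgrounds. Myc was higher by 1.05 ± 0.15 (SE). Of the 40 genes 15 passed, 13 higher and 2 lower, where 48.3% of all genes passed (30% higher and 18.3% lower). The largest rises were Nop14 (0.40), Polr1b (0.39), Rrp1b (0.35) and Ddx21 (0.33), and the genes that fell were Noc2l (-0.42) and Ebna1bp2 (-0.33), a large-subunit factor. Ncl differed by 0.00, Nop56 by 0.02 and Fbl by 0.03, and did not pass. The other probe sets of Ncl differed by 0.14, 0.32 and 0.12, that of Nop56 by 0.26 and that of Fbl by 0.12. The values near 0 thus belong to the probe sets used. After centring each array on its median 10 members passed, 4 higher and 6 lower, where 52.3% of all genes did (18.6% higher and 33.6% lower). Nop14 (0.25), Polr1b (0.24), Rrp1b (0.20) and Grwd1 (0.16) were the higher ones under that scaling, and Noc2l (-0.56) and Ebna1bp2 (-0.48) were among the lower.

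Within this background 5 of the 9 tumours carry myc in their titles, and some of these titles also hold ras or the word mix. The titles of the others name ras, myb or pim1 and ccnd3, so ras occurs in both groups. The sources used here do not say what the titles stand for. Myc was at 12.31 in the 5 and 11.95 in the 4, a difference of 0.36 ± 0.14 (SE, limma adjusted p = 0.991). Limma called 0 of the 40 members and 0% of all genes. At an unadjusted p under 0.05 there were 2 members and 219 of all 9157 genes. The median difference of the members was 0.13, against -0.04 over all genes, and 35 of 40 were higher in the tumours with myc in the title. The members move together, so the 35 are not separate observations. The score was 0.19, 0.31, 0.25, 0.00 and -0.02 on the 5 arrays titled myc. On the other 4 it was 0.19, 0.32, -0.13 and -0.29, so the groups overlapped.

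The remaining backgrounds moved few members when each was compared with the other 14. In Ikaros Plastic 6 passed, where 32.2% of all genes did (20.8% higher and 11.4% lower). Lower were Nhp2 (-0.56), a box H/ACA protein, Pno1 (-0.48), Polr1c (-0.41), a subunit that RNA polymerases I and III share, Noc4l (-0.39) and Ltv1 (-0.38), and Grwd1 was higher (0.29). The other Grwd1 probe sets differed by -0.25 and -0.30. Of 13 stromal markers 6 passed, all higher in Ikaros Plastic, and their part was not tested. Without replicate 2, limma called 0 members, with 5 at an unadjusted p under 0.05. In beta-catenin tumours 4 passed, where 36% of all genes did (23.1% higher and 13% lower). Tsr1 was at 11.53, 11.21 and 11.58 there and 0.61 ± 0.19 (SE) higher, Grwd1 was 0.39 ± 0.11 higher, and Ltv1 (-0.42) and Noc4l (-0.38) were lower. The other Grwd1 probe sets differed by -0.03 and -0.15. After centring each array on its median 9 members passed in beta-catenin tumours, all lower, and Tsr1 (0.42, limma adjusted p = 0.106) and Grwd1 (0.20, adjusted p = 0.122) did not. In olig1-LMO1 tumours 3 passed, where 9.58% of all genes did (2.72% higher and 6.86% lower): Ddx18 (0.59 ± 0.14) and Wdr12 (0.59 ± 0.19) higher and Rrp1b (-0.63 ± 0.13) lower. In LMO1 tumours Rrp1b alone passed (-0.55 ± 0.13), where 11.2% of all genes did (2.83% higher and 8.34% lower). In ThPOK tumours Rrp1b (0.57 ± 0.13) and Pno1 (0.55 ± 0.17) passed, both higher, where 26.9% of all genes did (17.6% higher and 9.33% lower).

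Single arrays decided several of these counts. Without replicate 2 of LMO1, limma called 0 members there, with 2 at an unadjusted p under 0.05. Without olig1-LMO1 replicate 1, 1 member passed, and without replicate 3, 2 passed, both lower. In ThPOK tumours 1 passed without replicate 1 or 3, and in beta-catenin tumours 2 passed without replicate 1 and 1 without replicate 3.

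In the other 6 backgrounds limma called 0 of the 40 members. The shares of all genes called were 2.78% in E2A knock-out tumours, 2.12% in Nup98HoxD13, 2.21% in Pokemon, 1.91% in rag E2A, 3.63% in Tal1 and 4.5% in Tal1-LMO2. At an unadjusted p under 0.05 there were 3 members in E2A knock-out tumours (where 15% of all genes passed), 4 in Nup98HoxD13 (15.9%), 3 in Pokemon (15.1%), 1 in rag E2A (18.8%), 3 in Tal1 (16.4%) and 1 in Tal1-LMO2 (21.1%), all of these members higher. The largest of these backgrounds' member differences was 0.57, in Pokemon tumours, which have 2 arrays.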

How the data were processed

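Total RNA of 53 tumour samples was labelled and hybridised to Affymetrix arrays, per the labels' protocols. The authors deposited 1 intensity per probe set and array on a linear scale, already normalized, by a method that the sources used here do not give. Array medians ran from 377 to 590, and depth has no meaning for arrays, whose number limits the precision. Intensities were taken to log2. Of 22690 probe sets 20393 had 1 gene symbol and 691 several, and these were not named. The probe set of highest mean stood for each gene, and genes were kept if 3 or more arrays had them above that array's median. Linear models were fitted with limma 3.58.1 (lmFit, eBayes) in R 4.3.3 over all kept genes, with Benjamini-Hochberg adjustment and a threshold of 0.05. Array sets came from average-linkage clustering of the control probe sets in SciPy 1.17.1, with the number of sets fixed at 4.

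The models were: an F-test over 15 backgrounds, each background against the mean of the other 14, TLX1 against the mean of 13, crossed against TLX1, tumours titled myc against the others within the Cdkn2a knock-out, and a slope on Myc with background as covariate. Tested on simulated data, they recovered 94.5% (TLX1 against 13) and 81% (Pokemon against 14) of 200 genes changed by log2 1, 71.5% for the title comparison and 71% of slopes of 0.5. The simulated noise was independent between genes and arrays and held no array sets. These rates therefore do not cover comparisons that share their split with array sets, such as TLX1 against 13. The members and gene lists were chosen with earlier results of these data known, and the lists give no independent support. Genes named in full were the best-known members, the extremes of the correlation with the other members and up to 4 called members in each direction per comparison. Replicate numbers shared across backgrounds did not pair the samples: residual correlations of same-numbered arrays had a median of -0.02, with 32 of 216 above 0.1. The 53 sample columns were all used. Alternatives are named in the closing section.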

Additional observations from a re-analysis of the deposited data

Results flagged for a closer look

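Of 126 gene and background combinations examined with 4 to 10 arrays, 6 had an array far from the others of its background. Chance alone would mark about 1 in 20. Replicate 4 of the TLX1 tumours accounted for 5 of the 6, all low. Fbl was at log2 11.48 there, with the other TLX1 arrays at 12.50 to 12.74, and Nop58 at 10.07, with the others at 11.31 to 11.64. Polr1a was at 9.63 (others 9.98 to 10.13), Nop16 at 8.79 (others 9.76 to 10.16) and Noc2l at 9.70 (others 10.56 to 11.02). Imp4 in replicate 9 of the Cdkn2a knock-out was at 10.03, with the others at 10.27 to 10.51.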

How the results depend on the processing

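Of the 151 values under other settings of filter, probe set choice, scaling, block or covariates, 129 kept their direction and stayed within 1.5 times the value reported, or within its spread. For the slope on Myc, 3 members passed with the array set as a block, 25 with arrays centred on their medians, 28 without the background covariate (26 positive, 2 negative), and by limma 0 with the actin ratio and array median (24 at an unadjusted p under 0.05) and 0 with the DNA replication mean (14 unadjusted). That block takes p53 knock-out replicate 3 and Tal1-LMO2 replicate 2 out of the slope. In the F-test 13 passed with that block, where the crossed tumours were left out. In the largest array set, which holds no TLX1 or crossed tumours, 13 passed. TLX1 against 13 kept 1 member with that block. With centred arrays the counts were 19 for crossed against TLX1 (14 higher, 5 lower), 10 for Cdkn2a (4 higher, 6 lower), 13 for Ikaros Plastic, 19 for crossed against the rest (12 higher, 7 lower), 1 for ThPOK and 9 for beta-catenin, all lower. In the largest set they were 11 for Ikaros Plastic, 4 for LMO1, 4 for ThPOK and 2 for the p53 knock-out. With the mean of probe sets they were 3 for Ikaros Plastic and 0 for LMO1, and with quantile normalization 4 for ThPOK. The Pokemon score was 0.17 relative to the array median. The cause of these changes was not tested. The actin and DNA replication covariates, and the largest array set alone except for the slope on Myc, were chosen after seeing the data.

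Leaving out 1 array at a time gave 1 to 17 members for the slope on Myc, 23 to 30 across backgrounds, 9 to 14 for TLX1 against 13, and 15 to 19 for crossed against TLX1. Against the other 14, the ranges were 11 to 16 for Cdkn2a, 5 to 19 for p53, 0 to 9 for Ikaros Plastic, 9 to 12 for TLX1, 16 to 21 for crossed, 1 to 3 for beta-catenin, 1 to 2 for ThPOK, 1 to 2 for olig1-LMO1 and 0 to 1 for LMO1. Without olig1-LMO1 replicate 3, 2 passed, both lower, and without p53 replicate 2, 5 passed (3 higher, 2 lower). With the replicate number as a block 14 members passed for the slope on Myc (with 4.69% of all genes), 24 across backgrounds, 12 for TLX1 against 13 and 16 for crossed against TLX1; this moved no count by over 1.5 times, and the block's consensus correlation was -0.02, so the numbers are only names.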
